A study of Drosophila melanogaster with 3 samples.

Results

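Intergenic distal peaks are sites bound by GFP-tagged CG14710 that lie outside every annotated gene and away from every promoter. CG14710 encodes a zinc finger protein of Drosophila melanogaster. Chromatin immunoprecipitation followed by sequencing (ChIP-seq) was done with an antibody against green fluorescent protein (GFP), on whole embryos of both sexes aged 0 to 14 h. All embryos came from a transgenic line in which CG14710 carried GFP at its C-terminus. The 3 biological replicates formed 1 group, with no other genotype, stage or target, and each averages over all cells of the embryo. Embryos without the tag were not analysed here, and the labels do not name the promoter that drives the transgene. Peaks were taken from the authors' list that passed a threshold on the irreproducible discovery rate (IDR), which keeps peaks whose ranks repeat between replicates. A peak was chosen if its summit, the position of highest signal, lay more than 500 bp from every transcription start site (TSS) and outside every transcript of the RefSeq annotation of assembly dm6. This rule used position only and took 1294 of 9194 peaks (14.1%, 95% Wilson interval 13.4% to 14.8%). The other peaks were 5330 promoter peaks (within 500 bp of a TSS), 2375 intronic distal peaks and 195 exonic distal peaks. Intervals here cover counting error only, and neighbouring peaks are not independent.

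In flies, enhancers, silencers and insulators often lie between genes, at some distance from the promoters they act on. Genes that pattern the embryo are known for long stretches of such sequence beside them. The sequence between genes is called a gap here. A gap is divergent where the genes at its 2 edges point away from each other, convergent where they point toward each other, and tandem where they point the same way. The position of a peak in a gap does not say which gene, if any, the site acts on.

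Sequences of 8 of these sites follow, as 101 bases centred on the summit, read from the plus strand of dm6. The windows beside COX7AL2, CG43131, RasGAP1 and ph-d are shown because they were among the strongest peaks with this position, and those beside slp1 and wg because they lay between patterning genes. The last 2 are shown because they carried the CTCF sequence. Capitals mark matches on either strand to the motifs searched, except the short BEAF-32 sequence CGATA. They are TATAAA beside COX7AL2 and wg, GGTCACACT beside slp1 and forms of the CTCF sequence in the last 2 windows. Windows with no capitals held no match.
COX7AL2 and CG31668, chr2L:2202354-2202454: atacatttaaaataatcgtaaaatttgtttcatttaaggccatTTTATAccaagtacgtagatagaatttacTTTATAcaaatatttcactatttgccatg
CG43131 and RabGGTa, chr3R:5113210-5113310: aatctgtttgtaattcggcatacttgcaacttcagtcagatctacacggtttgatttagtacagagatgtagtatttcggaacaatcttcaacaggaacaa
RasGAP1 and CG10809, chr3L:9855905-9856005: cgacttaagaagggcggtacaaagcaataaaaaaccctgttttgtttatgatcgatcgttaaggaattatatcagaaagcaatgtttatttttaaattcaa
ph-d and ph-p, chrX:2124095-2124195: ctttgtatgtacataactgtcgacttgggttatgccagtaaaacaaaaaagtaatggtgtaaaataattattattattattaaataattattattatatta
slp1 and slp2, chr2L:3832468-3832568: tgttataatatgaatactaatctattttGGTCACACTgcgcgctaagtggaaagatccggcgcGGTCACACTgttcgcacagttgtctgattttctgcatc
Wnt4 and wg, chr2L:7296067-7296167: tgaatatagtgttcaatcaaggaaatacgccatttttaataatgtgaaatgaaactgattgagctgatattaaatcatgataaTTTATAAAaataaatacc
Sox21a and Sox21b, chr3L:14111576-14111676: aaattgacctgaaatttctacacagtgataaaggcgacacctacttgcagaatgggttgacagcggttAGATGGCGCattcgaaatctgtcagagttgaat
soti and cv-c, chr3R:14391392-14391492: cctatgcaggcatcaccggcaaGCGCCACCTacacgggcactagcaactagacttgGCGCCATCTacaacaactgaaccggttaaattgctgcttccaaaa

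Among the first 4 windows only that beside COX7AL2 held a capitalised motif. The sites stronger than that beside RasGAP1 that are not shown all held a match, though only CGATA beside blw. The matches were TGCATAC with TATAAA and AGATAA with TATAAA beside Psc, AGATAA beside Su(z)2 and TTAATTA beside CG33453. The window beside ph-d was 20.8% G and C, that beside COX7AL2 was 23.8%, that beside RasGAP1 was 30.7%, and that beside CG43131 was 36.6%. The windows with capitals for GGTCACACT or for CTCF were richer, at 43.6% beside slp1, 42.6% beside Sox21a and 52.5% beside cv-c.

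Intergenic distal peaks ranked lower by signal than promoter peaks. None of the top 100 IDR peaks by signal was one of them, which allows a share of up to 3.70% (upper Wilson bound), and the first stood at rank 117. Their share was 8% of ranks 101 to 500 (32 of 400 peaks), 8.33% of ranks 501 to 2000 (125 peaks), 13.2% of ranks 2001 to 5000 (397 peaks) and 17.6% of ranks 5001 to 9194 (740 peaks). The same order was measured in the 9194 strongest peaks of each replicate, as many as the IDR list holds. There the share was 0% in all 3 replicates for the first 100 ranks and 16.9% ± 2.30 (SD, n = 3) for the last bin. In the IDR list, intronic distal peaks also rose, from 1% of the first 100 ranks to 30.5% of the last bin. Promoter peaks fell from 98% to 49.1%. Signal is the authors' value for each peak on a scale that is not stated, and is used here within a list only. It ran from 263 to 5004 over these peaks, with quartiles of 340 and 685 and a median of 456, against medians of 440 for exonic distal, 481 for intronic distal and 616 for promoter peaks.

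**Figure D1:**
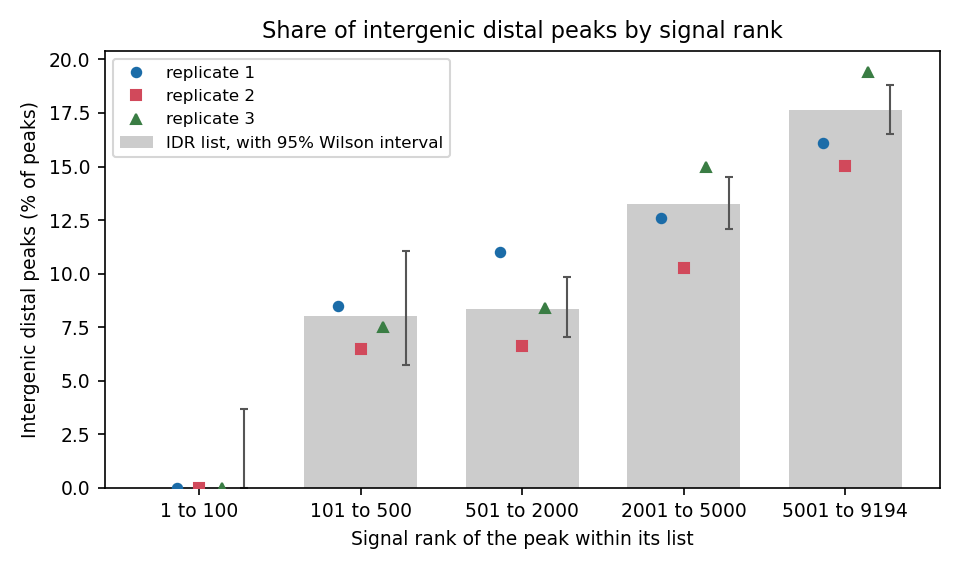
Share of peaks that were intergenic and distal (%) in 5 bins of signal rank. Bars give the IDR list with 95% Wilson intervals, and points give the 9194 strongest peaks of each replicate. No list held such a peak in its first 100 ranks, and the share was 17.6% of IDR peaks in the last bin.

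Signal percentiles within each replicate's 9194 strongest peaks were compared between classes. The median percentile of intergenic distal peaks was 42.0, 37.0 and 38.7 in replicates 1, 2 and 3, and that of promoter peaks 55.1, 56.1 and 58.4. Every replicate placed the intergenic median lower, by 13.1, 19.1 and 19.7 percentile points, a mean difference of -17.3 ± 3.62 (SD, n = 3; exact sign-flip permutation p = 0.25, two-sided). The difference from intronic distal peaks was small, at -2.62 ± 0.830 points (SD, n = 3; exact sign-flip permutation p = 0.25). Restricted to the higher 50% of peaks by signal, it was -9.97 points. With 3 replicates this test cannot give a p under 0.25, so no comparison over replicates here could pass 0.05.

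Replicate 2 gave fewer of these sites than the other replicates. Its 9194 strongest peaks held 1063 intergenic distal peaks (11.6%), against 1253 (13.6%) in replicate 1 and 1420 (15.4%) in replicate 3. Of the 1294 IDR sites, 71.3% lay within a strongest peak of replicate 2, against 86.7% in replicate 1 and 87.4% in replicate 3. Intronic distal peaks were also lowest in replicate 2, with 87.1%, 73.8% and 86.9% in replicates 1, 2 and 3, while promoter peaks stood at 90.5%, 91.7% and 86.5%. All 3 replicates held 744 of the sites among their strongest peaks (57.5%, Wilson interval 54.8% to 60.2%), where the background over all IDR peaks was 67.7%. For intronic distal peaks this share was 59.3% and for promoter peaks 74.3%. Without replicate 2, 75.04% of the sites were among the strongest peaks of the other replicates. Of the remaining sites, 396 were among the strongest of 2 replicates, 152 of 1 and 2 of none. With each replicate's whole list of 30000 peaks, 1182 sites (91.3%) lay in a peak of all 3, near the 91.9% of all IDR peaks. Across the sites with a peak in both replicates, which share a genome and are no independent samples, Spearman's rho of the signal was 0.82 for replicates 1 and 2 (1220 sites), 0.64 for 1 and 3 (1212 sites) and 0.57 for 2 and 3 (1198 sites).

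The 20 strongest sites, by mean percentile over the 3 replicates, had Psc, Su(z)2, ph-d, ph-p, slp1, slp2, bin, sty, CycB and blw among the genes on their sides. They spanned IDR ranks 117 to 575. All 20 were among the strongest peaks of every replicate, which a choice by mean percentile over the replicates fixes in advance. Of these sites, 7 lay on 3L, 5 on 2R, 4 on 2L, 3 on 3R and 1 on X. Their 17 gaps between protein-coding genes were 7 tandem, 6 divergent and 7 convergent when counted by site. Summits lay 670 to 11921 bp from the nearest TSS, with a median of 2190 bp.

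Of the 20, 4 had Psc, Su(z)2, ph-d or ph-p on a side; these were grouped after the 20 were seen, and no share of such genes over all sites was taken. Psc and Su(z)2 encode related proteins of the Polycomb group, which keeps developmental genes silent, and both lie on 2R. Between CG13321 and Psc were 2 sites. The first (IDR signal 5004, rank 117) had signals of 1650, 1028 and 2325 in replicates 1, 2 and 3, and the second (3885, rank 162) had 1338, 839 and 1714. Between Su(z)2 and CG13323 the IDR signal was 3788, with 1369, 763 and 1671 in the replicates. The tandem copies ph-d and ph-p on X, which encode polyhomeotic subunits of a Polycomb complex, held a site 859 bp from ph-d (IDR signal 3391; 1149, 824 and 1441 in the replicates). Signals of different replicate lists are on scales that cannot be set against each other. By rank, the ph-d site stood at 220, 193 and 199 in replicates 1, 2 and 3, and the first Psc site at 126, 147 and 107.

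The site between COX7AL2, named for a cytochrome c oxidase subunit, and CG31668 had an IDR signal of 4950 (rank 118) and signals of 1926, 1083 and 1978 in the replicates. It ranked 109, 138 and 125 there. Between the ATP synthase subunit gene blw and the mitotic cyclin gene CycB the IDR signal was 4178. It was 4083 between CG43131 and RabGGTa, a gene of Rab protein lipid modification, and 3745 between RasGAP1, which encodes an inhibitor of Ras, and CG10809. Between Sol1 and the cytochrome P450 gene Cyp9f2 it was 3411, with the nearest TSS, that of DNAlig3, 1292 bp away. CG33453 and tbrd-2 flanked a site of 3762.

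The forkhead genes slp1 and slp2, which act in segmentation, held 2 of the 20 in the 1 gap between them, with IDR signals of 3150 and 2461. The visceral mesoderm forkhead gene bin stood beside a site of 2762, tara beside 2651 and the rhodopsin gene Rh5 beside 2547. The gene sty encodes Sprouty, an inhibitor of receptor tyrosine kinase signalling, and 2 of the 20 lay between it and Ids, at 2523 and 1869. The latter lay in an interval shared with another summit of 2321, which takes the same value in replicates 1 and 2. The remaining sites were beside CG7560 (2840), CG43245 (2579) and hng3 (2589).

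**Figure D2:**
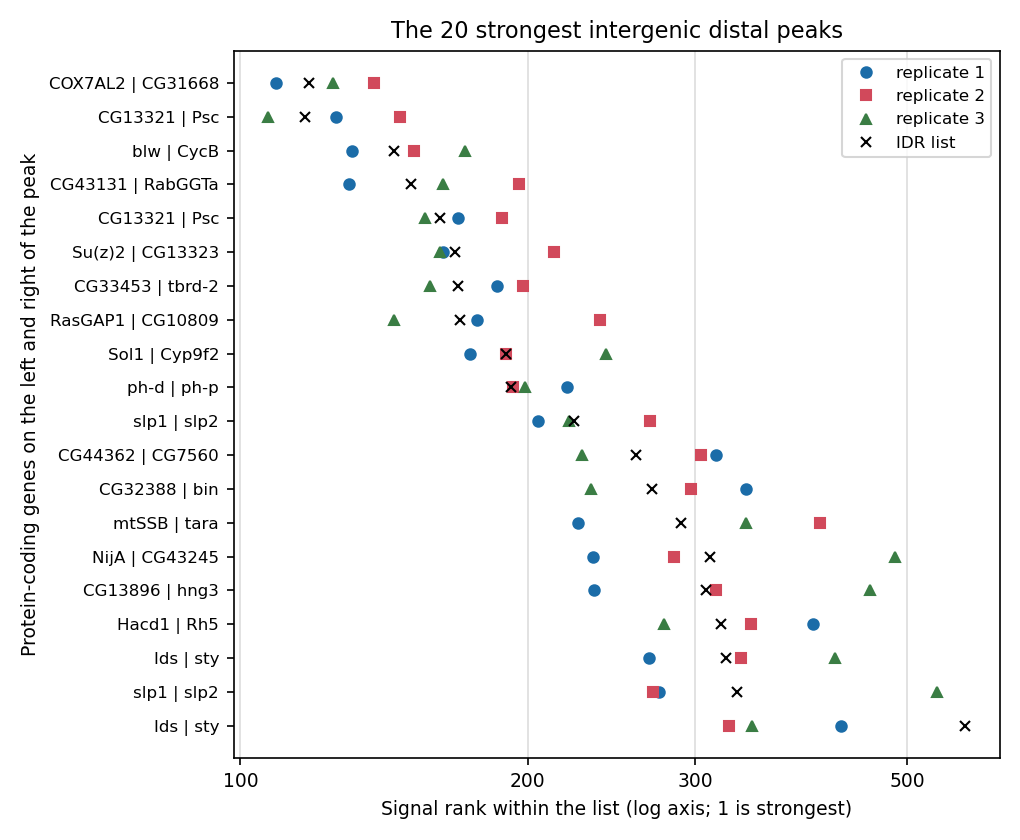
Signal rank (log axis, 1 is strongest) of the 20 strongest intergenic distal peaks in each replicate list and in the IDR list, labelled by the protein-coding genes on both sides. The sites were chosen by their percentiles in the replicates, where their ranks lay between 107 and 537. The first site in the IDR list stood at rank 117.

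These peaks were closer to start sites than the sequence that could have held them. The 39.0 Mb that meet the rule make up 28.3% of the chromosome arms. Summits lay a median of 3320 bp from the nearest TSS, with quartiles of 1478 and 6669 bp, against a median of 5942 bp for the bases that meet the rule outside the Y chromosome. Densities by distance, by orientation and by edge of the gap count the Y chromosome, which held 0 sites on 2.51 Mb. They also count nearly empty stretches, such as 24 to 25 Mb of 3L with 1 site on 619 kb. What such sequence adds to these patterns was not tested. Density per 100 kb of all sequence meeting the rule was 6.68 ± 0.560 (SD, n = 3 replicates) at 501 to 1000 bp, 5.32 ± 0.550 at 1001 to 2000 bp and 4.02 ± 0.735 at 2001 to 5000 bp. It was 3.50 ± 0.530 at 5001 to 10000 bp, 2.60 ± 0.521 at 10001 to 20000 bp and 0.413 ± 0.0592 beyond. Each of the 3 replicates gave a lower density in each farther bin. The counts of IDR sites in these bins were 197, 255, 383, 279, 138 and 42.

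Sites at the ends of this range had signals from near the lowest of the class to above its upper quartile of 685. Just over the distance of 500 bp were summits at 502 bp from the TSS of the chaperone gene Hsc70-3 (signal 342), 503 bp from nw (1216) and 503 bp from CG13896 (464). Just under it, and so left out, were summits outside transcripts at 500 bp from lncRNA:CR45352 (686), 497 bp from PHDP (921) and 495 bp from lncRNA:CR44886 (391). The 2 farthest were between CG10651 and lncRNA:CR40341 on 2L, at 43220 bp (959) and 40379 bp (268). The next was at 39445 bp on 3R (340), and only replicate 3 had a peak over it.

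Divergent gaps held more sites for their length than other gaps. Of the sites, 335 were in divergent gaps (25.9%, against 19.6% of the bases), 658 in tandem gaps (50.9% against 51.1%) and 300 in convergent gaps (23.2% against 25.9%), with 1 at the end of an arm. Densities were 4.10, 3.51 and 4.85 per 100 kb in divergent gaps in replicates 1, 2 and 3, 3.19, 2.70 and 3.58 in tandem gaps, and 3.01, 2.56 and 3.33 in convergent gaps. Divergent gaps were highest in every replicate. Their range over replicates lay above that of convergent gaps and overlapped that of tandem gaps, and replicate 2 was the lowest for all 3 kinds. The ratio of divergent to convergent density was 1.40 ± 0.0500 (SD, n = 3; exact sign-flip permutation p = 0.25 on the log2 ratio), and that of divergent to tandem was 1.31 ± 0.0355 (exact p = 0.25). Divergent gaps have a start site at both edges, so orientation and distance to a TSS are linked, and their parts were not separated.

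**Figure D3:**
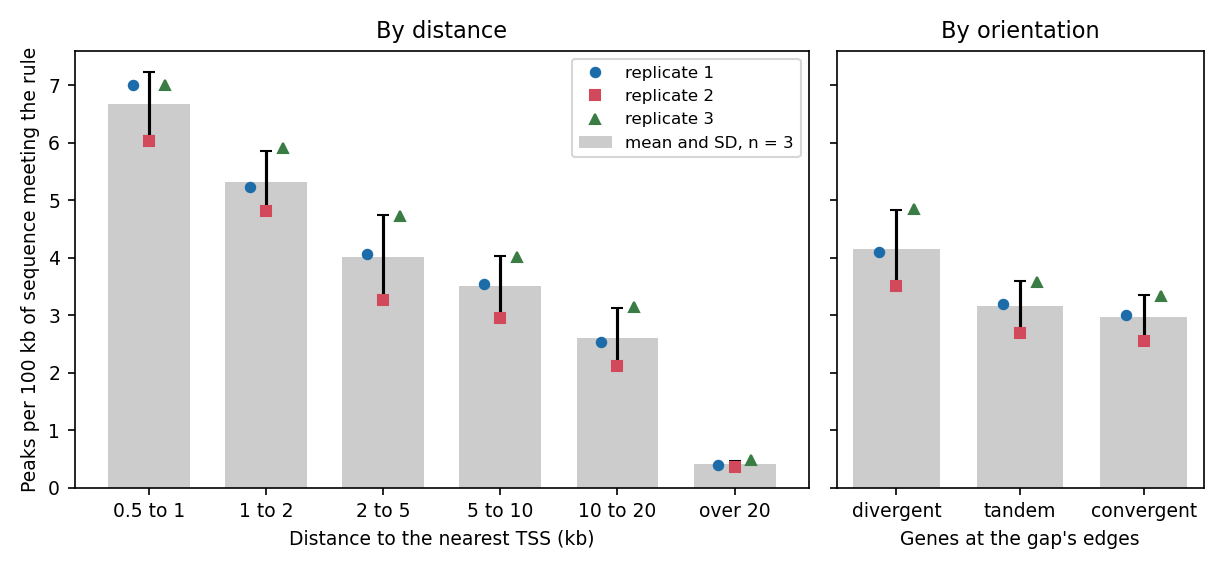
Intergenic distal peaks per 100 kb of sequence meeting the rule, by distance to the nearest TSS (left) and by the orientation of the genes at the gap's edges (right). The sequence includes the Y chromosome. Bars and error bars give the mean and SD of 3 replicates and points the replicates; density was 6.68 per 100 kb at 501 to 1000 bp and 0.413 beyond 20 kb.

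The nearer edge of the gap was a gene start for 630 sites and a gene end for 664. For the bases that face each kind of edge, density near starts was 1.10 ± 0.0458 times that near ends (SD, n = 3; exact sign-flip permutation p = 0.25). Protein-coding genes formed both edges for 607 sites (46.9%), 1 edge for 547 (42.3%) and neither for 140 (10.8%). The nearest TSS belonged to a protein-coding gene for 875 sites (67.6%) and to a long non-coding or antisense RNA for 376 (29.1%). With flanks read from protein-coding genes alone, 387 sites lay between divergent, 651 between tandem and 255 between convergent genes. Peak intervals had a median width of 341.5 bp, and 72 of them (5.56%) reached into a transcript although the summit did not.

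Most sites shared a gap with another. Of 6626 gaps with sequence meeting the rule, 716 (10.8%) held at least 1 site, and 273 gaps with 2 or more held 851 sites (65.8%). The 43 gaps with 5 or more held 269 (20.8%). The next IDR summit lay a median of 2516 bp away. A neighbour within 2 kb was found for 45.5% ± 2.13 (SD, n = 3) of these sites, 48.6% ± 2.32 of intronic distal and 51.6% ± 6.38 of promoter peaks, with ranges over replicates that overlapped.

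Of the 5 large arms, 3L had the highest density in every replicate. Density per 100 kb was 4.65 ± 0.583 on 3L (440 sites), 3.92 ± 0.509 on 2L (278), 3.19 ± 0.639 on 3R (242), 2.60 ± 0.444 on X (154) and 2.22 ± 0.305 on 2R (168) (SD, n = 3). The short chromosome 4 held 12 sites, at 4.48, 5.71 and 3.26 per 100 kb in replicates 1, 2 and 3, above 3L in replicate 2 and in the IDR list (4.89 against 4.85), and Y held 0 on 2.51 Mb. The density on 3L was 1.55 ± 0.0480 times that of the other arms without Y, and 1.37 times without the 8 gaps with the most sites, 6 of which are on 3L. By block of 1 Mb, the highest count was 59 sites at 11 to 12 Mb of 3L, with 61, 44 and 65 in replicates 1, 2 and 3. The blocks at 15 to 16, 18 to 19 and 0 to 1 Mb of 3L followed with 51, 44 and 42 sites. Each of these 4 blocks drew its sites from 11 to 13 gaps between protein-coding genes.

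The gap with the most sites was 75.05 kb long and divergent, between NijA, which encodes the membrane protein Ninjurin A, and CG43245. Its 12 sites spanned 71.4 kb with signals from 279 to 2579, and 10 were among the strongest peaks of all 3 replicates. Replicates 1, 2 and 3 placed 11, 12 and 11 of their strongest peaks there. The strongest, 2144 bp from the start of CG43245, had 1091, 621 and 885 in the replicates. A pair of summits 214 bp apart fell in 1 interval and share their replicate values, so neighbouring sites are not separate measurements.

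The other dense gaps held 7 to 11 sites each. The gap between lncRNA:CR44363 and CG7560 held 10 sites in 19.1 kb (signals 278 to 2840), and 9 of them were among the strongest peaks of all 3 replicates. Beside vvl, which encodes a POU domain transcription factor, 9 sites lay in 70.5 kb with signals from 269 to 1348. Between lncRNA:CR46197 and CG6244 were 9 sites, of which 3 were among the strongest in all 3 replicates; comm, an axon guidance gene, is the next protein-coding gene on the left. The gap between lncRNA:CR45632 and the gustatory receptor gene Gr93a held 7 sites in 8.42 kb, with signals from 299 to 1785. Another 7 lay between lncRNA:CR44886 and lncRNA:CR46243 on X, in the sequence between the phosphodiesterase gene dnc and the growth regulator gene Myc (270 to 1280). The gaps beside tRNA:Ile-TAT-1-2 and CG13898 (11 sites) and between CG7320 and lncRNA:CR45935 (10 sites) complete the 8. Ties were ordered by best rank, so other gaps with 7 sites, such as that between Wnt4 and wg (best rank 1381), were left out of the 8.

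Around the cell death genes of 3L, looked at after their counts were seen, were 13 sites. They fell in the block at 18 to 19 Mb, which held 44 sites, or 9.60 per 100 kb. No density was taken for these gaps alone. The strongest site between grim and rpr lay 44343 bp from grim and 48775 bp from rpr. The genes rpr, grim and hid encode inhibitors of the caspase inhibitor Diap1, and skl encodes a related protein. Between grim and rpr were 5 sites with signals from 297 to 1652, between rpr and skl 5 with signals from 310 to 1007, and between hid and CG7320 3 with signals from 319 to 1832. In replicates 1, 2 and 3 the strongest site had 575, 304 and 784 between grim and rpr, 472, 225 and 295 between rpr and skl, and 619, 441 and 779 between hid and CG7320. CG7320 and CheA75a, next to them, held 18 sites between them, the most between any pair of neighbouring protein-coding genes.

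Patterning genes were flanked more often than protein-coding genes at large. A gene counted as flanked if it was the nearest protein-coding gene on either side of a site, among genes beside sequence meeting the rule. That was so for 1112 of 7867 protein-coding genes (14.1%), for 15 of 26 segmentation genes (57.7%), 14 of 23 dorsoventral and mesoderm genes (60.9%), 15 of 25 neural fate genes (60%) and 9 of 25 signalling ligand genes (36%). Hox genes, which specify segment identity, stood at 4 of 8, namely Dfd, Scr, Ubx and abd-A. Chemosensory receptor genes (11 of 115, 9.57%), cuticle protein genes (10 of 83, 12.05%), cytosolic ribosomal protein genes (7 of 51, 13.7%) and cell surface recognition genes (11 of 66, 16.7%) stood near the value of all genes. Of 10 insulator and architectural protein genes, 1, mod(mdg4), was flanked. Counted in replicates 1, 2 and 3 alone, the share of dorsoventral and mesoderm genes was 52.2%, 39.1% and 47.8%, that of neural fate genes 64%, 56% and 56%, and that of segmentation genes 57.7% in each. No set test was run, and these lists were chosen with earlier results of these data known.

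The lists differed in the length of sequence beside their genes. The median gap held 0.944 kb of sequence meeting the rule for all protein-coding genes, against 9.78 kb for segmentation, 7.13 kb for neural fate, 4.44 kb for dorsoventral and mesoderm, 6.77 kb for signalling ligand, 4.85 kb for Hox, 3.42 kb for chemosensory receptor and 9.13 kb for cell surface recognition genes. The sequence beside all protein-coding genes was the whole 39.0 Mb that meet the rule. It took in nearly empty stretches and the Y chromosome, which held 0 sites on 2.51 Mb, and no density without them was taken for this comparison. Per 100 kb of sequence meeting the rule, density was 3.20 ± 0.458 beside all protein-coding genes (SD, n = 3). It was 8.50 ± 1.92 beside segmentation genes, 8.02 ± 1.99 beside dorsoventral and mesoderm genes, 8.99 ± 1.90 beside neural fate genes and 6.57 ± 0.990 beside signalling ligand genes. The lowest replicate of these 4 lists was above the highest replicate of all genes. The 4 lists are not independent, since wg and hh are on the segmentation and signalling ligand lists. Likewise dpp is on the dorsoventral and mesoderm list and the signalling ligand list. Hox genes, at 3.59 ± 0.718, overlapped all genes. Cell surface recognition genes had long gaps and few sites, at 1.62 ± 0.266 per 100 kb, and ribosomal protein genes were at 1.48 ± 0.0987. Replicate 2 was the lowest for the segmentation, dorsoventral and mesoderm, neural fate and signalling ligand lists.

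**Figure D4:**
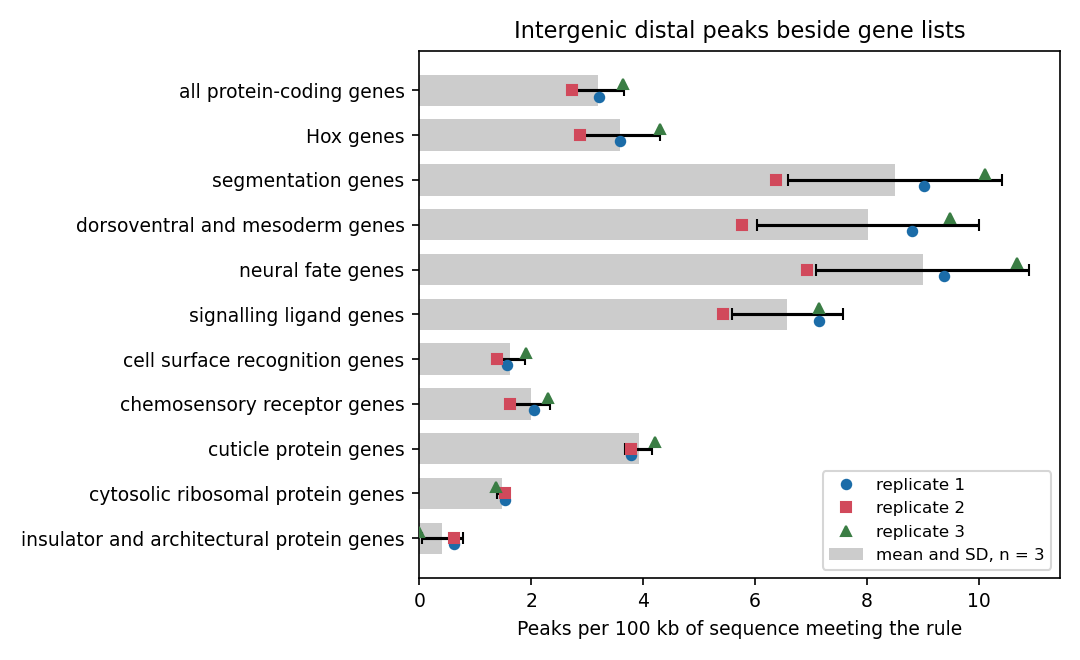
Intergenic distal peaks per 100 kb of sequence meeting the rule in gaps beside genes of 10 lists and beside all protein-coding genes, the last with the Y chromosome included. Bars and error bars give the mean and SD of 3 replicates and points the replicates; segmentation, dorsoventral and mesoderm, neural fate and signalling ligand genes lie between 5.43 and 10.7 per 100 kb in each replicate, against 2.73 to 3.64 for all genes.

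Segmentation genes beside a site covered several steps of the cascade. They included the gap genes kni and tll, the pair-rule genes odd, opa, run, slp1 and slp2, the segment polarity genes ci, en, hh, ptc and wg, and the head genes btd, ems and oc. The stronger site between slp1 and slp2 had signals of 1188, 647 and 1348 in replicates 1, 2 and 3, and lay 4322 bp from the TSS of slp2. Its window is the one printed above with 2 copies of GGTCACACT. The second, 769 bp past slp1, had 987, 647 and 834, and a weaker site of 353 lay nearer slp2.

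The pair of Wnt ligand genes Wnt4 and wg, which point away from each other, had 7 sites between them. Their IDR signals were 1199, 733, 661, 533, 445, 373 and 321. The first, 11042 bp from wg, had 374, 293 and 511 in the replicates and the second 200, 170 and 44.1. Of the 7, 3 were among the strongest peaks of all 3 replicates. The strongest site beside a signalling ligand gene lay between pyr and ths, which encode fibroblast growth factor ligands (1453; 611, 302 and 520 in the replicates), and 4 weaker ones followed in the same gap.

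Within the lists as drawn, T-box and LIM-homeodomain genes led the mesoderm and neural lists. The visceral mesoderm gene bin, beside a stronger site of 2762, was not on the dorsoventral and mesoderm list. Beside Doc2, a T-box gene of the dorsal ectoderm and mesoderm, sites of 1227 (429, 231 and 568 in the replicates) and 1124 (443, 200 and 463) were the strongest of the dorsoventral and mesoderm list. The sequence between Doc2 and Doc1 held 5 sites. Between tup, an Islet-type gene of motor neurons and heart, and ssp3 were 6 sites, led by 1357 (509, 261 and 601) and 1061 (444, 162 and 464). Between Glut3 and abd-A, 2 sites of 1198 (451, 364 and 383) and 680 (237, 114 and 316) were the strongest beside a Hox gene.

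The strongest sites beside the other lists had signals from 307 to 1785. Toll-6, a cell surface receptor gene of the Toll family, had 1439 on one side (503, 320 and 610 in the replicates) and 1418 on the other (568, 327 and 524). The first lay 3918 bp from Toll-6, but the second lay 25050 bp from it and 447 bp from CG7255. The gustatory receptor genes Gr93a and Gr93d had 1785 (598, 418 and 794) and 1178 (420, 295 and 460). Beside the cuticle genes Cpr76Ba and Cpr35B were sites of 1124 and 643, the former with no peak in replicate 1. The latter lay 15949 bp from Cpr35B and 9144 bp from CG15283. The ribosomal protein genes RpL17 and RpS23 had 748 and 667, and mod(mdg4) had 307, with no peak in replicate 3.

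Summits were poor in G and C. The 101 bases around them were 31.7% ± 1.31 G and C in the 3 replicates, against 42.8% ± 0.440 in windows 500 bp away, which are called flanks here, a difference of -11.0 ± 1.74 points (SD, n = 3; exact sign-flip permutation p = 0.25). It was -10.7, -9.43 and -12.9 in replicates 1, 2 and 3. Bases that meet the rule were 40.8% G and C. The other classes showed the same dip, with 32.4% at intronic distal summits against 42.2% and 35.6% at promoter summits against 46.0%. Single sites ranged from 11.9% to 66.3%, with a median of 29.7%. The summit lay in sequence marked as repeat by soft masking for 331 sites (25.6%), against 17.0% of flanks and 26.6% of bases that meet the rule, and the median signal of these was 419 against 472 for the rest.

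**Figure D5:**
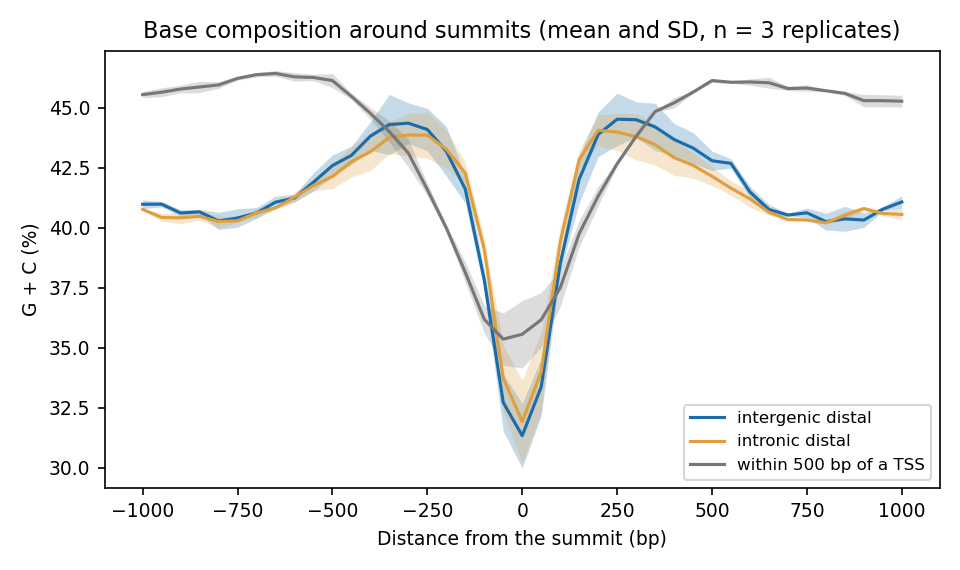
G and C (%) by distance from the summit (bp) for intergenic distal, intronic distal and promoter peaks. Lines and bands give the mean and SD of 3 replicates. All 3 classes dip at the summit, with intergenic distal peaks at about 31.3% at distance 0.

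The sequences of CTCF, M1BP, DREF, ZIPIC, Su(Hw) and core promoter motifs 6 and 7 were each at 2.01% of these summits or fewer. Motifs were searched on both strands within 50 bp of the summit, and compared with flanks and with 355869 windows of the same length tiled over the sequence meeting the rule. The CTCF sequence, in its forms AGAGGGCGC, AGATGGCGC, AGGGGGCGC and AGGTGGCGC, is read by the insulator protein CTCF. It was at 26 of 1294 summits (2.01%, Wilson interval 1.37% to 2.93%), 0.270% of flanks and 0.168% of tiled windows. In replicates 1, 2 and 3 it was at 2.15%, 2.07% and 1.27% of summits, and summits exceeded flanks by 1.60 ± 0.450 points (SD, n = 3; exact sign-flip permutation p = 0.25). Promoter peaks had it at 0.919% and intronic distal peaks at 0.884%.

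The 26 sites with the CTCF sequence had a median signal of 402, below the 456 of all intergenic distal peaks. The sequence was at 2 of the strongest 324 of these peaks (0.617%) and 7 of the weakest 324 (2.16%). Among the 26, the summits between Rx and Act57B had the same replicate values and are not separate measurements. All 3 replicates held 57.5% of all intergenic distal peaks and 67.7% of all IDR peaks among their strongest peaks, and 61.5% of the 26 (16 sites). The best of the 26 stood at rank 1076. The strongest lay 777 bp from jp (1386; 618, 324 and 464 in the replicates). Others lay between the SoxB genes Sox21a and Sox21b (648; 258, 169 and 215), whose window above holds AGATGGCGC, and between soti and cv-c (646; 255, 171 and 233), whose window holds 2 forms.

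M1BP binds core promoter motif 1, here searched as GGTCACACT. It was at 10 summits (0.773%), 0% of flanks and 0.0452% of tiled windows, and at 4.02% of promoter summits. The DREF sequence TATCGATA was at 8 summits (0.618%), 0.309% of flanks and 0.216% of tiled windows, against 7.24% of promoter summits. ZIPIC (CAGGGCTG) was at 3 summits, 0.116% of flanks and 0.125% of tiled windows. Core promoter motif 6 (GGTATTTT) was at 13 summits, 0.734% of flanks and 0.645% of tiled windows, and core promoter motif 7 (CATCNCTA) at 8, 0.618% and 0.617%. The Su(Hw) sequence TGCATAC was at 26 summits (2.01%), 0.966% of flanks and 1.43% of tiled windows.

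Words rich in A and T were at more summits than flanks, beside the dip in G and C. TATAAA was at 26.2% of summits, 10.4% of flanks and 12.5% of tiled windows, the Hox homeodomain sequence TTAATTA at 7.11%, 4.10% and 4.82%, and the GATA sequence AGATAA at 9.27%, 4.48% and 5.77%. Intronic distal summits held them at 26.0%, 7.24% and 10.5% and all IDR summits at 22.8%, 6.35% and 7.71%, in the same order. Their relation to base composition was not tested. GAGAGAG, the sequence of GAF, was at 0.773% of summits and 1.85% of flanks (tiled windows 1.10%), the E-box CACGTG at 0.155% and 1.20% (1.09%) and the Zelda sequence CAGGTAG at 0.464% and 0.618% (0.434%). CGATA, the BEAF-32 sequence, which is part of TATCGATA, was at 11.1% of summits, 11.2% of flanks and 10.5% of tiled windows, against 29.6% of promoter summits. Of the 14 motifs, 10 were at more summits than flanks in all 3 replicates, CGATA among them (11.5% ± 0.570 of summits and 10.1% ± 0.719 of flanks, SD, n = 3), unlike its IDR values. Among 8-base words ranked on 2L and 3R, the first were of A and T alone or nearly so. AAATATAT, the first of them, was at 8.08% of summits and 1.92% of flanks there and at 8.40% and 2.07% on the other arms.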

How the data were processed

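Chromatin of 3 replicate embryo samples of 1 group was sonicated to fragments of 200 to 800 bp, per the labels. Per the text files deposited with the samples, each replicate's peak list was made from its alignments to dm6 and 1 control file, and the IDR list from the 3 replicate lists and a pooled list. Neither the aligner nor the peak caller nor the cut on IDR is named in those texts or in the labels, and read depth is unknown. The authors deposited a signal for each peak on a scale that is not stated. The q value was deposited by the authors as -log10, capped, and was not used. The authors deposited the summit as another value, an offset in bp.

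Summits were set against RefSeq genes of the same assembly (17800 genes and 23250 TSS on the arms). A site took a replicate's value from that replicate's highest peak over its summit. Replicate analyses used each replicate's 9194 strongest peaks of 30000. Differences over replicates were tested by exact two-sided sign-flip permutation (smallest p 0.25), with no adjustment. Where all 3 replicates differed in the same direction, p was 0.25 whatever the spread between them. Intervals are 95% Wilson. Named sites were the 20 with the highest mean percentile, the 8 gaps with the most sites, the 2 strongest beside each of 10 gene lists and 3 sites at each end of the distance range. The sites with the CTCF sequence and the cell death genes were chosen after their values were seen. Members, lists, motifs and tests were chosen with earlier results of these data known. Motif windows of 101 bp were compared with windows 500 bp to each side. Alternatives were TSS distances of 250 and 1000 bp, protein-coding transcripts only, the higher 50% of peaks by signal, unmasked summits, other list sizes and windows, and each replicate left out. Ensembl release 115 genes and leaving out the 8 densest gaps were added after seeing the data. The procedures were tested on simulated data. The tools were pandas 2.3.3, numpy 2.4.6 and scipy 1.17.1 under Python 3.11.15, with figures by matplotlib 3.10.9.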

Additional observations from a re-analysis of the deposited data

Results flagged for a closer look

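Outside the chromosome arms, 9 of the strongest peaks of replicate 2 lay on the mitochondrial genome, against 0 in replicates 1 and 3, where a count of 0 allows up to 3; these peaks entered no comparison.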

How the results depend on the processing

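No paired analysis was possible because the samples form 1 group, that is, none between groups; classes and windows were compared within each replicate. The share of IDR peaks that were intergenic and distal, 14.1%, was 17.97% with a TSS distance of 250 bp and 11.9% with 1000 bp. It was 16.9% with protein-coding transcripts only and 10.6% in the higher 50% of peaks by signal. With each replicate left out in turn it was 11.8% to 13.7%, counted only over IDR peaks among the strongest of both remaining replicates. The like count with all 3 replicates was 744 of 6222 peaks, not the 14.1% of the whole list. The share among the strongest peaks of all 3 replicates, 57.5%, was 90.8% in the higher 50% of peaks, 20.9% with 50% as many strongest peaks, 89.9% with 2 times as many, and 60.6% to 75.04% with a replicate left out. The ratio of 3L to the other arms, 1.55, was 1.35 at 250 bp, 1.63 at 1000 bp, 1.45 with protein-coding transcripts, 1.81 in the higher 50%, 1.47 with unmasked summits and 1.37 without the 8 densest gaps. The soft-masked share, 25.6%, was 23.0% in the higher 50%. With a replicate left out it was 22.6% to 25.4%, counted over sites among the strongest peaks of both remaining replicates. Summit minus flank shares turned sign for core promoter motif 6 (0.26 points; -0.12 in the higher 50%, -0.016 with flanks 1000 bp away), core promoter motif 7 (0.18; -0.21 in the higher 50%) and Zelda (-0.10; 0.059 at 250 bp, 0.24 in the higher 50%, 0.030 with unmasked summits). The cause of these moves was not tested. The log2 ratio of divergent to convergent density, 0.48, ran from 0.30 with Ensembl genes to 0.93 at 250 bp. Over all results and alternatives, 6 of 262 values turned sign and 20 without a test over replicates moved. Some that kept their sign moved in size, such as the difference from intronic peaks (-2.62 to -9.97 points in the higher 50%), BEAF-32 (1.45 to 0.46 with windows of 100 bp on each side) and ZIPIC (0.19 to 0.038 with flanks 1000 bp away). Depth, the caller and the signal scale are unknown and limit each comparison of lists, and a site absent from a list of 30000 peaks may still be bound.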
